A study of Mus musculus with 9 samples.

Results

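Hspa5 (BiP, also called Grp78) is the HSP70 chaperone of the lumen of the endoplasmic reticulum (ER). It was followed here with 9 genes whose products work beside it: Hsp90b1, Hyou1, Sdf2l1, Dnajb9, Dnajb11, Dnajc3, Manf, Creld2 and Sil1. These 10 genes were chosen by name from what they are known to do, with earlier results of these data known. All 10 were found by gene ID among the 21936 genes of the tumour table and the 22060 genes of the macrophage table. All 10 also passed the filter of a mean of 1 CPM in each table, as did 11190 tumour and 11049 macrophage genes in all.

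RNA was sequenced from cultures of C57BL mouse cells, with 1 library per group and 9 libraries in all. The 4 macrophage libraries were GM-BMDM with 4 h of tunicamycin, GM-BMDM untreated, M-BMDM with 4 h of tunicamycin and M-BMDM untreated, where BMDM are macrophages grown from bone marrow and GM and M are the labels' names for their kinds. The 5 tumour libraries were of Lewis lung carcinoma (LLC) cells, an established mouse lung tumour line, kept for 24 h in conditioned medium or left untreated. Stressed GM and stressed M medium came from macrophages of that kind that had been given tunicamycin for 12 h, washed and left in fresh serum-containing medium for 16 h, and unstressed GM and unstressed M medium came from macrophages taken through the same steps without tunicamycin. What fed the untreated LLC cells is not given in the sources used here, nor whether any culture was pooled. The times differ between the cell types: macrophages were read after 4 h with the drug, and LLC cells after 24 h in a medium whose makers had the drug for 12 h.

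Tunicamycin blocks the first step of N-linked glycosylation, so that glycoproteins fail to fold in the ER. BiP binds exposed hydrophobic stretches of such proteins in cycles of ATP hydrolysis, which J-domain partners start and nucleotide exchange factors end. BiP also holds the stress sensors IRE1, PERK and ATF6 inactive, and the unfolded protein response that these sensors start raises transcription of BiP and many of its partners, which has made Hspa5 mRNA a usual readout of ER stress. Macrophages and tumour cells both secrete heavily and depend on this machinery.

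Assigned reads ranged from 37695079 to 42751176 per macrophage library and from 15020068 to 17128471 per LLC library. CPM are counts scaled to a common library size by TMM (trimmed mean of M-values) within each table, so levels are compared only among libraries of 1 table. Folds are ratios of CPM, and the interval after a fold is an exact 95% interval that covers counting error only. Nothing in it covers differences between cultures, since no group had a second library. The 10 macrophage markers were all above 1 CPM in the BMDM libraries, with summed levels of 32790 to 52110 CPM, mostly Lyz2. In LLC cells 3 or 4 of the 10 reached 1 CPM, the sum was 26.64 to 40.71 CPM, and Adgre1, Ptprc, Tyrobp and Itgam had 0 counts in all 5 libraries. Of 5 epithelial markers, Krt8 and Krt18 were above 1 CPM in LLC cells, with a sum of 363.1 to 526.8 CPM, while Epcam had 0 counts in 4 of the 5 libraries and Cdh1 in 3.

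The promoters of several members share a motif. The members were chosen by what they are known to do, so their choice and the motif are not independent. ATF6 with the factor NF-Y binds the ER stress response element, which is CCAAT, 9 bases of any kind and CCACG. The RefSeq promoter table (GRCm38.p6) held windows for 7 of the 10 genes, and the 19-base element was present, on either strand, in 4 of those 7 windows, against 0.113% of the table's 32851 windows. The 4 sequences that hold it are printed 5′ to 3′ on the gene's strand, each the 250 bases before the RefSeq start, with the element in capitals. The window of Hspa5 lies at chr2:34771840-34772089 on the plus strand, that of Hsp90b1 at chr10:86705445-86705694 on the minus strand, Dnajc3 at chr14:118937682-118937931 on the plus strand and Creld2 at chr15:88819396-88819645 on the plus strand.
Hspa5: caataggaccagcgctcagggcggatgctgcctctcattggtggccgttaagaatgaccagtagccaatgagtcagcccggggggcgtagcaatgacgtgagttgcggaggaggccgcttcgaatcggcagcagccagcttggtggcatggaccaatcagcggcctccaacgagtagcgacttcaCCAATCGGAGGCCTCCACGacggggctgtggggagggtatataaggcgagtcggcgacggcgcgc
Hsp90b1: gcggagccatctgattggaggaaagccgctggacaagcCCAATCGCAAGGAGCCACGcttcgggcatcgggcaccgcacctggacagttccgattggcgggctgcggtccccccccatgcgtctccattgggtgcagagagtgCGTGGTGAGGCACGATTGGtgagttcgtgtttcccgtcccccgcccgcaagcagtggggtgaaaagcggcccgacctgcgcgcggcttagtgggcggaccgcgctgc
Dnajc3: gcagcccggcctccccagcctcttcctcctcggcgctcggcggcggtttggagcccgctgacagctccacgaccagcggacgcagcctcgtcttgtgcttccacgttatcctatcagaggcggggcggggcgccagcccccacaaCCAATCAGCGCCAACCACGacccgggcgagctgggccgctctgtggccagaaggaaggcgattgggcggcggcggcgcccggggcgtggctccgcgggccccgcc
Creld2: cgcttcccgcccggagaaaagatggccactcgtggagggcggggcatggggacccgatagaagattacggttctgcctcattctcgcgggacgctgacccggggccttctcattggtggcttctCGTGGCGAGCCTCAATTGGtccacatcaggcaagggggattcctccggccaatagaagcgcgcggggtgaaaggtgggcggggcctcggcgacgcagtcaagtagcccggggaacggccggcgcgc
Distances are to the RefSeq start. The gene starts of Hspa5 (chr2:34771970) and Hsp90b1 (chr10:86705509) in the deposited coordinates lie inside the printed windows. In Hspa5 the element ended 47 bases before the RefSeq start and in Dnajc3 87 bases before it. Hsp90b1 held 2 copies, 1 ending 194 bases before the start and 1 on the opposite strand ending 89 bases before it. Creld2 held it on the opposite strand, ending 108 bases before the start, so that there and in the second Hsp90b1 copy it reads as CGTGG and then ATTGG. The windows of Dnajb9, Dnajb11 and Sdf2l1 did not hold these letters. The other motifs searched, the ER stress response element II (ATTGG, any base, CCACG), TGACGTGG (the core of the unfolded protein response element) and TGATGNAA (the C/EBP-ATF element), were in 0 of the 7 windows, against 0.0304%, 0.563% and 3.45% of all windows. The half-site CCACG, which is part of the first 2 elements named and was added after the sequences had been seen, was in 6 of 7 windows, Dnajb11 being the exception, against 28.3% of all. A match is a description of the letters and not of binding.

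In macrophages, Hspa5 and most of its partners were higher after tunicamycin, and the ratios were larger in M-BMDM. Hspa5 had 1542 CPM in tunicamycin-treated GM-BMDM and 1048 CPM in untreated GM-BMDM, a ratio of 1.47 (1.45 to 1.49). In M-BMDM it had 2301 CPM with tunicamycin and 1080 CPM untreated, a ratio of 2.13 (2.11 to 2.16). The untreated kinds were thus close, at 0.97-fold (0.957 to 0.983) for GM over M, and the treated M-BMDM library stood above the treated GM-BMDM library. Hspa5 took 0.153% of all assigned reads in treated GM-BMDM and 0.1% in untreated GM-BMDM, and 0.245% in treated M-BMDM and 0.107% in untreated M-BMDM. Together the 10 genes took 0.361% and 0.278% in treated and untreated GM-BMDM, and 0.464% and 0.258% in treated and untreated M-BMDM.

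In GM-BMDM, 3 of the 10 genes (Hspa5, Dnajb9 and Creld2) were at least 25% higher with tunicamycin, a step of 0.322 in log2(CPM + 1), where 3.71% of all genes compared were. With total counts in place of TMM, Hyou1 and Manf passed that step too, 5 of 10 against 5.95% of all genes. In M-BMDM 7 of 10 were, against 12.8% of all genes, and Hspa5, Dnajb9 and Creld2 were at least 2-fold higher, against 1.18%. With total counts Hsp90b1 and Dnajb11 passed the 25% step there too, 9 of 10 against 20.8% of all genes. None of the 10 was lower by that log2 step in either kind, where 5.67% and 12.8% of all genes were in GM-BMDM and M-BMDM. The median log2 difference of the 10 was 0.25 in GM-BMDM and 0.66 in M-BMDM, beside medians over all genes of 0.001 and 0.004. These comparisons set 1 library against 1 and carry no p-value, and in bulk RNA a change in the mix of cells and a change per cell cannot be told apart. The 10 macrophage markers summed to 37770 and 39950 CPM in treated and untreated GM-BMDM, and to 32790 and 52110 CPM in treated and untreated M-BMDM. Most of each sum was Lyz2, at 33140 and 34950 CPM in treated and untreated GM-BMDM. In treated and untreated M-BMDM Lyz2 had 21850 and 39140 CPM. By the log2 step, 0 of the 10 markers were lower with tunicamycin in GM-BMDM and 4 in M-BMDM. The part of these markers in the chaperone differences was not tested. In GM-BMDM 4 of the 5 neutrophil markers that passed the filter were lower with tunicamycin: in treated and untreated cells Ngp had 22.22 and 45.97 CPM, S100a8 34.71 and 63.14 CPM, S100a9 42.82 and 71.78 CPM, and Ltf 18.83 and 31.49 CPM. The fifth, Mmp8, had 1485 and 1459 CPM in treated and untreated GM-BMDM. It made up most of the summed level of the 10 neutrophil markers, which was 1608 and 1680 CPM. The part of the neutrophil markers was not tested either.

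**Figure D1:**
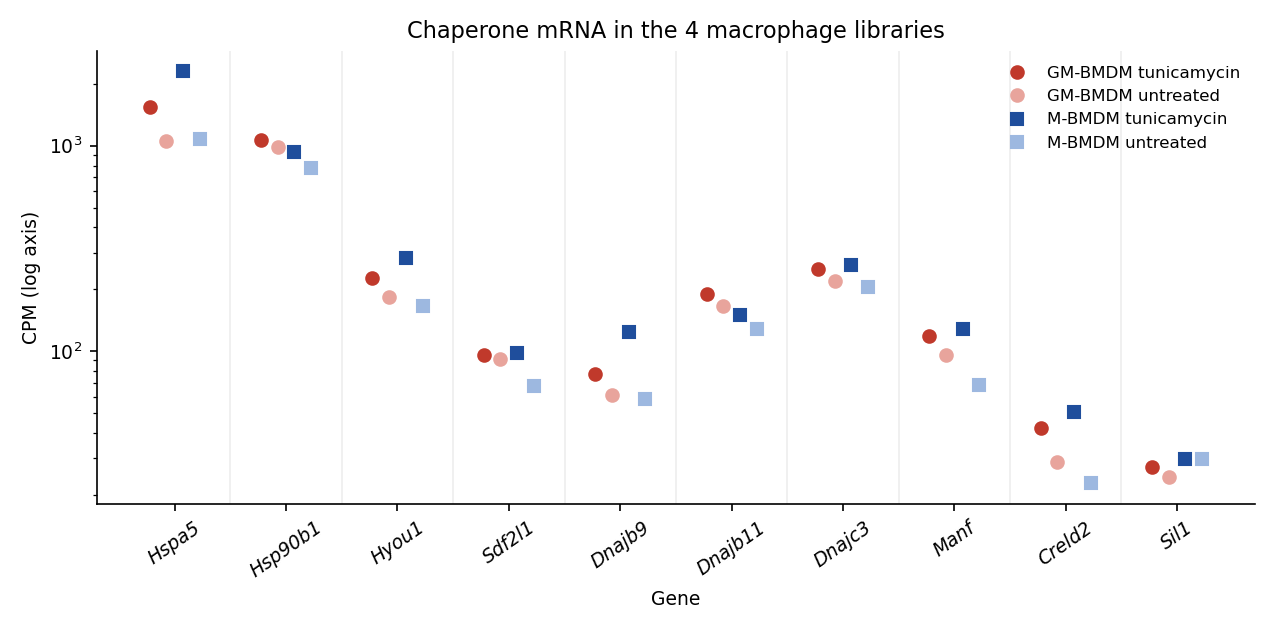
Levels of the 10 genes in the 4 macrophage libraries, in CPM on a log axis, with 1 point per library. Hspa5 in tunicamycin-treated M-BMDM (2301 CPM) stands above its other 3 points, while the Sil1 points lie between 24.41 and 29.76 CPM.

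The chaperones that fold or release clients did not move alike. Hsp90b1 (Grp94), the HSP90 paralog of the ER, which finishes a narrow set of clients such as Toll-like receptors and integrins, had 1062 CPM in treated and 988.5 CPM in untreated GM-BMDM, and 931.1 CPM in treated and 781.8 CPM in untreated M-BMDM. Its ratios, 1.07 (1.06 to 1.09) and 1.19 (1.17 to 1.21), were under the step of 25% in both kinds. With total counts Hsp90b1 passed that step in M-BMDM. Hyou1 (Grp170) is a large HSP70 relative that acts as a nucleotide exchange factor for BiP. It had 226.4 CPM in treated and 184.1 CPM in untreated GM-BMDM (1.23-fold, 1.19 to 1.27), and 283.4 CPM in treated and 165.7 CPM in untreated M-BMDM (1.71-fold, 1.66 to 1.76). Sil1, the other exchange factor of BiP, had 27.26 CPM in treated and 24.41 CPM in untreated GM-BMDM, and 29.74 CPM in treated and 29.76 CPM in untreated M-BMDM. The Sil1 ratio was 1.12 (1.02 to 1.22) in GM-BMDM. In M-BMDM the Sil1 ratio was 0.999 (0.921 to 1.08), so a change in Sil1 was not detectable there at this depth.

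The J-domain partners were also split. Dnajb9 (ERdj4), which delivers misfolded clients for degradation and helps BiP to repress IRE1, had 77.2 CPM in treated and 61.45 CPM in untreated GM-BMDM, and 123.4 CPM in treated and 58.29 CPM in untreated M-BMDM. Its ratio of 2.12 (2.01 to 2.23) in M-BMDM was close to that of Hspa5, and its ratio in GM-BMDM was 1.26 (1.19 to 1.32). Dnajb11 (ERdj3), which hands unfolded clients to BiP, had 190.4 CPM in treated and 166 CPM in untreated GM-BMDM, and 150.4 CPM in treated and 128.5 CPM in untreated M-BMDM, with log2 differences of 0.20 and 0.23. Dnajc3 (p58IPK), a co-chaperone known also as an inhibitor of the kinases PERK and PKR, had 251.1 CPM in treated and 218.3 CPM in untreated GM-BMDM, and 261.1 CPM in treated and 204.1 CPM in untreated M-BMDM. The Dnajc3 log2 differences were 0.20 and 0.35, the second between those of the other J proteins in M-BMDM.

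Of the small cofactors, Creld2, an ER-resident protein with disulfide isomerase activity, had 42.04 CPM in treated and 28.84 CPM in untreated GM-BMDM (1.46-fold, 1.35 to 1.57), and 50.48 CPM in treated and 22.81 CPM in untreated M-BMDM (2.21-fold, 2.04 to 2.4). Manf, a BiP cofactor that is also secreted under stress, had 118.3 CPM in treated and 96.14 CPM in untreated GM-BMDM (1.23-fold, 1.18 to 1.28), and 127.4 CPM in treated and 68.51 CPM in untreated M-BMDM (1.86-fold, 1.77 to 1.95). Sdf2l1, which forms a complex with Dnajb11 and keeps its clients soluble, had 96.16 CPM in treated and 91.3 CPM in untreated GM-BMDM (1.05-fold, 1.01 to 1.1), and 98.14 CPM in treated and 67.25 CPM in untreated M-BMDM (1.46-fold, 1.39 to 1.53). For Manf and Sdf2l1 the treated levels of the kinds were near each other, and the lowest level was that of untreated M-BMDM.

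The tunicamycin response, as a log2 difference, was smaller in GM-BMDM than in M-BMDM for 9 of the 10 genes, and by at least 0.322 for 6, a step that 14.7% of all genes passed in that direction. Of all genes, 46.0% had a difference of responses below that of Dnajb11, the least negative of the 9. The difference of responses, GM minus M, was -0.75 for Dnajb9 (counting interval -0.86 to -0.65), -0.59 for Manf, -0.58 for Creld2, -0.53 for Hspa5, -0.47 for Hyou1 and -0.47 for Sdf2l1. It was -0.15 for Hsp90b1 and for Dnajc3. Dnajb11 at -0.03 (-0.10 to 0.04) and Sil1 at 0.15 (-0.01 to 0.33) had intervals that include 0. With 1 library per group the interaction leaves no residual degree of freedom, so the difference between kinds carries no test.

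An additive fit over the 4 macrophage libraries, with kind and tunicamycin as terms, was made with edgeR's quasi-likelihood test and Benjamini-Hochberg adjustment over all 11049 genes. It called 0 of the 10 genes for tunicamycin, and 0.0% of all genes in either direction, while 1103 genes had an unadjusted p under 0.05. Among those were 6 of the 10 members: Creld2 at 0.84 ± 0.17 (log2 fold change ± SE, edgeR adjusted p = 0.36), Hspa5 at 0.82 ± 0.17 (adjusted p = 0.36), Dnajb9, Manf, Hyou1 and Dnajc3. DESeq2 on the same counts called 52 genes, among them Hspa5 (adjusted p = 0.0021) and Creld2 (adjusted p = 0.03), and edgeR with no filter on low counts called 101 genes, also with both. This fit rests on a spread over genes with a coefficient of variation of 11.5% and 1 residual degree of freedom, and it takes the gap between the kinds' responses as error.

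Between the untreated kinds many genes differed, and the count of chaperones among them depended on the scaling. Hsp90b1, Sdf2l1, Dnajb11, Manf and Creld2 were at least 25% higher in untreated GM-BMDM, 5 of 10 against 28.0% of all genes, with ratios from 1.26 for Hsp90b1 and Creld2 to 1.4 for Manf. With total counts in place of TMM, Sdf2l1 and Manf alone passed, 2 of 10 against 26.0% of all genes. Under tunicamycin 1 gene, Dnajb11, was 25% higher in GM-BMDM (29.3% of all genes), and Hspa5, Hyou1 and Dnajb9 were lower by the same log2 step (30.7%). With total counts 0 were 25% higher (25.5% of all genes), and Creld2 joined the lower genes (37.0%). In the additive fit, GM over M, Dnajb11 alone of the 10 was called, at 0.35 ± 0.11 (edgeR adjusted p = 0.034), where 25.4% of all genes rose. Markers of other cells moved with kind: 10 neutrophil markers summed to 1608 CPM in treated and 1680 CPM in untreated GM-BMDM, mostly Mmp8 (1485 and 1459 CPM), against 31.88 and 50.51 CPM in treated and untreated M-BMDM. The 6 mast cell, basophil and eosinophil markers summed to 105.3 and 135.2 CPM in treated and untreated GM-BMDM, against 1.28 and 1.556 CPM in treated and untreated M-BMDM. The part of such cells in the kind differences was not tested.

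In LLC cells, medium from stressed macrophages went with higher mRNA of 9 of the 10 genes, and Sil1 was the exception. Hspa5 had 2555 CPM in stressed GM medium and 1158 CPM in unstressed GM medium, a ratio of 2.21 (2.17 to 2.25). It had 2907 CPM in stressed M medium and 1206 CPM in unstressed M medium, a ratio of 2.41 (2.37 to 2.45), and 984.8 CPM in untreated LLC cells. Both stressed-medium libraries stood above the other 3, and untreated cells were lowest. By read count Hspa5 ranked 16th of all genes in stressed GM medium and 61st in unstressed GM medium, 11th in stressed M medium and 57th in unstressed M medium, and 71st in untreated cells. Its share of reads was 0.253% and 0.116% in stressed and unstressed GM medium, 0.287% and 0.122% in stressed and unstressed M medium, and 0.0995% in untreated cells.

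With GM medium 8 of the 10 genes were at least 25% higher in the stressed form, against 7.18% of all genes, and Hspa5 was at least 2-fold higher, against 0.393%. With M medium 9 of 10 were, against 8.59% of all genes, and Hspa5 and Sdf2l1 were at least 2-fold higher, against 0.411%. With total counts Hspa5 alone was 2-fold higher there (0.384%). Dnajb11 in GM medium was just short of the 25% step, with a log2(CPM + 1) difference of 0.316, and Dnajb9 just past it, at 0.325. With total counts Dnajb9 did not pass in GM medium, which left 7 of 10 against 6.77% of all genes.

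**Figure D2:**
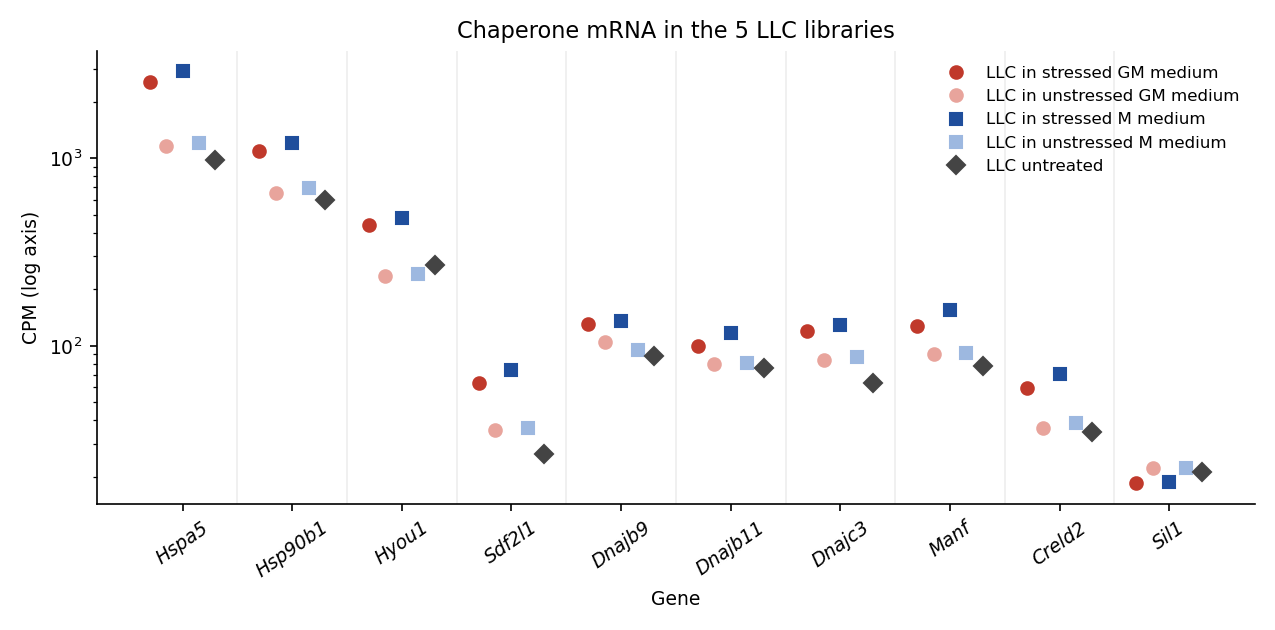
Levels of the 10 genes in the 5 LLC libraries, in CPM on a log axis, with 1 point per library. For 9 genes both stressed-medium points lie above the other 3, and for Sil1 they lie below them, at 18.58 and 18.75 CPM.

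Hsp90b1 had 1089 CPM in stressed and 651.2 CPM in unstressed GM medium, 1211 CPM in stressed and 697.3 CPM in unstressed M medium, and 598.9 CPM in untreated cells. Its ratios were 1.67 (1.63 to 1.71) and 1.74 (1.7 to 1.78), set beside 1.07 and 1.19 in macrophages given tunicamycin, at other times of exposure. Hyou1 had 442.8 CPM in stressed and 236.3 CPM in unstressed GM medium, 478.8 CPM in stressed and 242 CPM in unstressed M medium, and 271.2 CPM in untreated cells. It was thus 1.87-fold (1.8 to 1.95) and 1.98-fold (1.9 to 2.06) higher in stressed medium, and its lowest levels were in unstressed medium, at 0.871-fold (GM) and 0.892-fold (M) of untreated cells. Sil1 had 18.58 CPM in stressed and 22.22 CPM in unstressed GM medium, 18.75 CPM in stressed and 22.26 CPM in unstressed M medium, and 21.14 CPM in untreated cells. The exchange factors of BiP therefore had ratios on opposite sides of 1, Sil1 at 0.836 (0.713 to 0.98) and 0.842 (0.721 to 0.984).

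The J-domain partners had smaller ratios than Hspa5 in LLC cells. Dnajb9 had 130.9 CPM in stressed and 104.3 CPM in unstressed GM medium, 136.1 CPM in stressed and 94.83 CPM in unstressed M medium, and 87.87 CPM in untreated cells. Its log2 differences of 0.325 and 0.516 were well under those of Hspa5 (1.14 and 1.27), unlike in M-BMDM, where the pair was near equal. Dnajb11 had 99.32 CPM in stressed and 79.6 CPM in unstressed GM medium, 116.5 CPM in stressed and 81.03 CPM in unstressed M medium, and 75.94 CPM in untreated cells. Dnajc3 had 119.3 CPM in stressed and 83.82 CPM in unstressed GM medium, 129.3 CPM in stressed and 87.61 CPM in unstressed M medium, and 63.49 CPM in untreated cells. Dnajc3 was the J-domain gene with the widest span, 2.04-fold (1.89 to 2.2) for stressed M medium over untreated cells, and part of that span lay between unstressed medium and no medium.

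Sdf2l1 had 63.23 CPM in stressed and 35.54 CPM in unstressed GM medium, 74.57 CPM in stressed and 36.51 CPM in unstressed M medium, and 26.54 CPM in untreated cells. Its ratio in M medium, 2.04 (1.85 to 2.26), was second to that of Hspa5. Creld2 had 59.51 CPM in stressed and 36.45 CPM in unstressed GM medium, 70.61 CPM in stressed and 38.64 CPM in unstressed M medium, and 34.71 CPM in untreated cells. Manf had 128 CPM in stressed and 90.64 CPM in unstressed GM medium, 155.1 CPM in stressed and 91.03 CPM in unstressed M medium, and 77.59 CPM in untreated cells. All 3 cofactor genes were higher in each stressed medium than in the other 3 libraries.

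**Figure D3:**
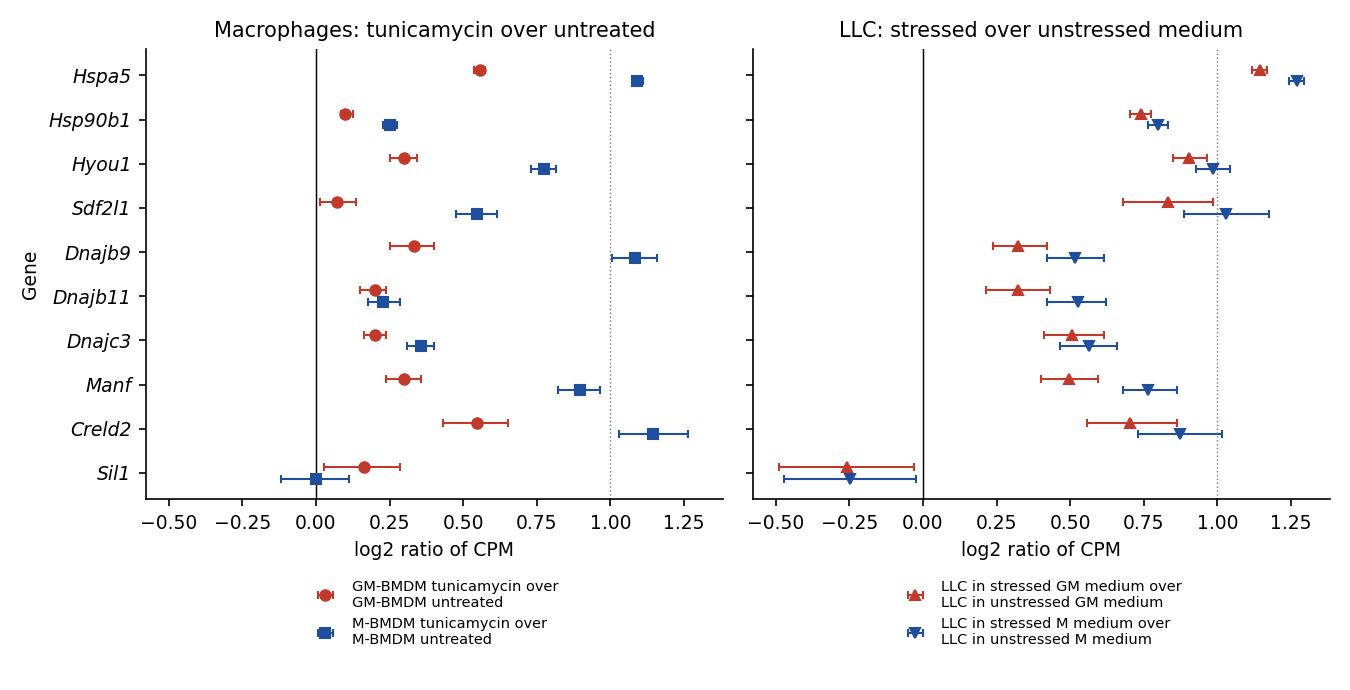
Log2 ratio of CPM for each gene, tunicamycin over untreated macrophages on the left and LLC cells in stressed over unstressed medium on the right; bars are 95% counting intervals and the dotted line marks a ratio of 2. The GM and M points lie closer together in LLC cells than in macrophages for every gene except Dnajb11, and Sil1 is the leftmost gene in 3 of the 4 comparisons, that of GM-BMDM being the exception.

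A fit over the 5 LLC libraries held the kind of medium, its stress and medium against none. Stressed over unstressed medium, 9 of the 10 genes rose (edgeR adjusted p from 8.5e-111 for Hspa5 to 2.2e-09 for Dnajb11), where 12.5% of all 11190 genes rose and 10.9% fell. Hspa5 rose by 1.21 ± 0.05 (log2 fold change ± SE) and had the third lowest p of all genes. Hyou1 rose by 0.95 ± 0.06, Sdf2l1 by 0.93 ± 0.08, Creld2 by 0.79 ± 0.08, Hsp90b1 by 0.77 ± 0.05, Manf by 0.64 ± 0.06, Dnajc3 by 0.54 ± 0.06, Dnajb9 by 0.42 ± 0.06 and Dnajb11 by 0.42 ± 0.06. Sil1 was at -0.25 ± 0.12 and did not pass (edgeR adjusted p = 0.11). The median of the 10 was 0.70, beside -0.003 over all genes. All 9 also passed with DESeq2, the highest adjusted p being 0.012 for Dnajb11. The p-values are very small because the fit found a coefficient of variation of 4.28% across genes and took each gene's spread from the trend, with 1 residual degree of freedom per gene. That spread comes from the 4 media alone, because the untreated library has its own term. The fit takes the gap between the stress responses with GM and with M medium as error. The p-values therefore do not measure the spread among repeat cultures. Of the 4 fibroblast markers tested, Col3a1 and Pdgfra fell, while Col1a2 (-0.137 ± 0.324) and Pdgfrb (0.016 ± 0.075) were not called. The summed level of the fibroblast markers was 1068 and 1822 CPM in stressed and unstressed GM medium. It was 1050 and 1583 CPM in stressed and unstressed M medium, and 1260 CPM in untreated cells. Most of each sum was Col3a1, at 938.1 and 1650 CPM in stressed and unstressed GM medium. The epithelial markers Krt8 (-0.19 ± 0.06, edgeR adjusted p = 0.0036) and Krt18 (-0.34 ± 0.10, edgeR adjusted p = 0.0042) also fell with edgeR, and neither was called by DESeq2. The markers' part in the chaperone result was not tested.

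**Figure D4:**
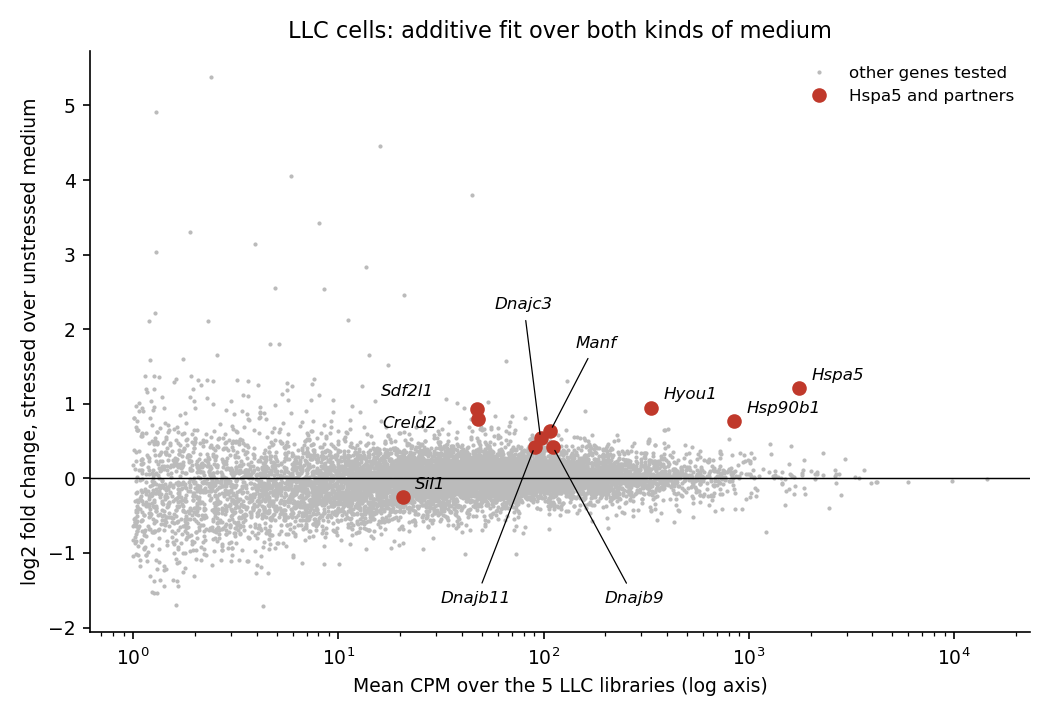
Log2 fold change of stressed over unstressed medium in the additive LLC fit against mean CPM (log axis), with 1 point per gene and the 10 chaperone genes in red. Hspa5 (1.21) lies above most genes of its level, and Sil1 (-0.25) below 0.

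Genes of other ER functions rose as well, with smaller medians. Of all 11190 genes, 1395 rose and 1216 fell with edgeR, and 308 rose and 168 fell with DESeq2. Of 14 disulfide isomerases and lectin chaperones tested, 10 rose and 0 fell (edgeR's quasi-likelihood test), with a median of 0.28; Calr, a lectin chaperone, rose by 0.53 ± 0.05, Ero1l, which oxidises the isomerases, by 0.44 ± 0.06, and Pdia4 by 0.44 ± 0.06. Of 15 genes of ER-associated degradation, 9 rose and 0 fell, with a median of 0.20, among them Sel1l (0.55 ± 0.06) and Herpud1 (0.48 ± 0.06), parts of the Hrd1 ubiquitin ligase machinery. Of 13 stress sensors and regulators, 7 rose and Asns, asparagine synthetase, fell. Ppp1r15a (Gadd34), which directs the phosphatase of eIF2alpha, rose by 1.57 ± 0.07, more than Hspa5, and the sensor gene Atf6 rose by 0.44 ± 0.06. None of the 14 other ER J proteins and cofactors passed. At an unadjusted p under 0.05 edgeR had 1 higher and 1 lower, where 3783 of 11190 genes passed in either direction. Sec63, the J protein of the translocon, was at -0.002 ± 0.06 and Dnajc10 at -0.02 ± 0.06. Of 3 KDEL receptors, which return escaped ER proteins, Kdelr2 rose. Of 12 HSP70 and HSP90 genes outside the ER lumen, 5 rose, with Hspa4l (0.47 ± 0.06) and Hsp90aa1 (0.34 ± 0.05) leading, and Hspa2 fell. With DESeq2, 7 of the disulfide isomerases and lectins rose, 4 of the degradation genes, 3 of the sensors and regulators, 4 of the HSP70 and HSP90 genes outside the ER lumen, and 0 of the KDEL receptors and of the other J proteins and cofactors, with none of these lists' genes lower. These lists were drawn up with earlier results of these data known.

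In macrophages the same lists stood in another order. With tunicamycin the median log2 difference of the sensors and regulators was 0.30 in GM-BMDM and 1.16 in M-BMDM, above those of the 10 chaperone genes, 0.25 and 0.66. The disulfide isomerases and lectin chaperones had medians of 0.03 and 0.07, and the other ER J proteins and cofactors 0.06 and -0.01. Ddit3 (CHOP) was 3.29-fold higher in GM-BMDM and 11.4-fold higher in M-BMDM, and Herpud1 1.65-fold and 5.22-fold. In LLC cells the sensors and regulators had a median of 0.14 in the fit, below the 0.70 of the chaperones. Whether the lists differ between the cell types was not tested.

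Stressed GM and stressed M medium gave near levels. None of the 10 genes differed by the log2 step of 0.322 between them, where 4.43% of all genes were higher and 3.46% lower in GM medium, and none differed between the unstressed media (4.71% and 5.38%). The ratio for Hspa5 was 0.879 (0.867 to 0.89) for stressed GM over stressed M medium, and the lowest was that of Manf, 0.826 (0.779 to 0.875). The rise with stress was smaller with GM than with M medium for the 9 genes other than Sil1, whose log2 differences were -0.246 with GM and -0.236 with M medium. The difference of responses of Sil1, GM minus M, was -0.01, and 50.5% of all genes lay below it. The median log2 difference of responses over the 10, GM minus M, was -0.145, and it was -0.322 or lower for 0 of them (6.26% of all genes). The counting interval of that difference included 0 for Hyou1, Sdf2l1, Dnajc3, Creld2 and Sil1. In the fit, GM over M medium, 0 of the 10 passed, where 2.21% of all genes rose and 2.32% fell. At an unadjusted p under 0.05 edgeR had 5 of them lower (Hspa5, Hsp90b1, Dnajb11, Manf and Creld2, from -0.12 to -0.18). Of all 11190 genes, 1506 passed that unadjusted cutoff in either direction. After adjustment DESeq2 also called 0 of the 10.

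Medium itself, without stress, went with small differences from untreated cells. Sdf2l1 and Dnajc3 were at least 25% higher in each unstressed medium, 2 of 10 against 19.9% (GM) and 16.9% (M) of all genes, with Dnajc3 at 1.32 and 1.38 and Sdf2l1 at 1.34 and 1.38. Against the same untreated library, 9 of 10 were 25% higher in stressed GM medium (21.1% of all genes) and 9 of 10 in stressed M medium (20.5%). At least 2-fold higher were 2 of 10 in stressed GM medium (1.48%) and 5 of 10 in stressed M medium (1.22%), where Hspa5 reached 2.95 (2.9 to 3.01) and Sdf2l1 2.81 (2.51 to 3.15). With total counts those were the only 2 of the 10 past 2-fold in stressed M medium (1.06%). The untreated library is shared by these 4 comparisons. In the fit of the 4 media together over untreated cells 9 of the 10 rose (24.9% of all genes), from 0.29 ± 0.06 for Hyou1 to 0.91 ± 0.10 for Sdf2l1 (edgeR adjusted p at most 0.00037). Dnajb11, at 0.29 ± 0.08, was lost with DESeq2 (adjusted p = 0.17), and Sil1 was at -0.05 ± 0.13. The untreated arm is 1 library and adds nothing to the estimate of spread, which comes from the 4 media alone, so that library is assumed to vary as they do. This contrast averages stressed and unstressed media, so that Hyou1 rose in it although it was lower in both unstressed media than in untreated cells.

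Per length, Hspa5 and Hsp90b1 made up most of the set. FPKM, reads scaled to gene length and library size, allow levels of different genes to be compared. In FPKM, Hspa5 had 361.8 in treated and 236.9 in untreated GM-BMDM, and 580 in treated and 252.5 in untreated M-BMDM. Hsp90b1 had 261.4 in treated and 234.4 in untreated GM-BMDM, and 246.1 in treated and 191.7 in untreated M-BMDM. The FPKM ratio of Hspa5 to Hsp90b1, which no scaling between libraries can change, was 1.38 (1.37 to 1.4) in treated and 1.01 (0.997 to 1.02) in untreated GM-BMDM, and 2.36 (2.33 to 2.38) in treated and 1.32 (1.3 to 1.34) in untreated M-BMDM. In LLC cells it was 2.24 and 1.7 in stressed and unstressed GM medium, 2.29 and 1.65 in stressed and unstressed M medium, and 1.57 in untreated cells. In every pair the stressed library had more Hspa5 per Hsp90b1. The share of Hspa5 in the summed FPKM of the 10 genes was 37.8% and 31.7% in treated and untreated GM-BMDM, 47.8% and 37.1% in treated and untreated M-BMDM, 51.1% and 42.7% in stressed and unstressed GM medium, 51.4% and 42.9% in stressed and unstressed M medium, and 41.1% in untreated LLC cells.

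**Figure D5:**
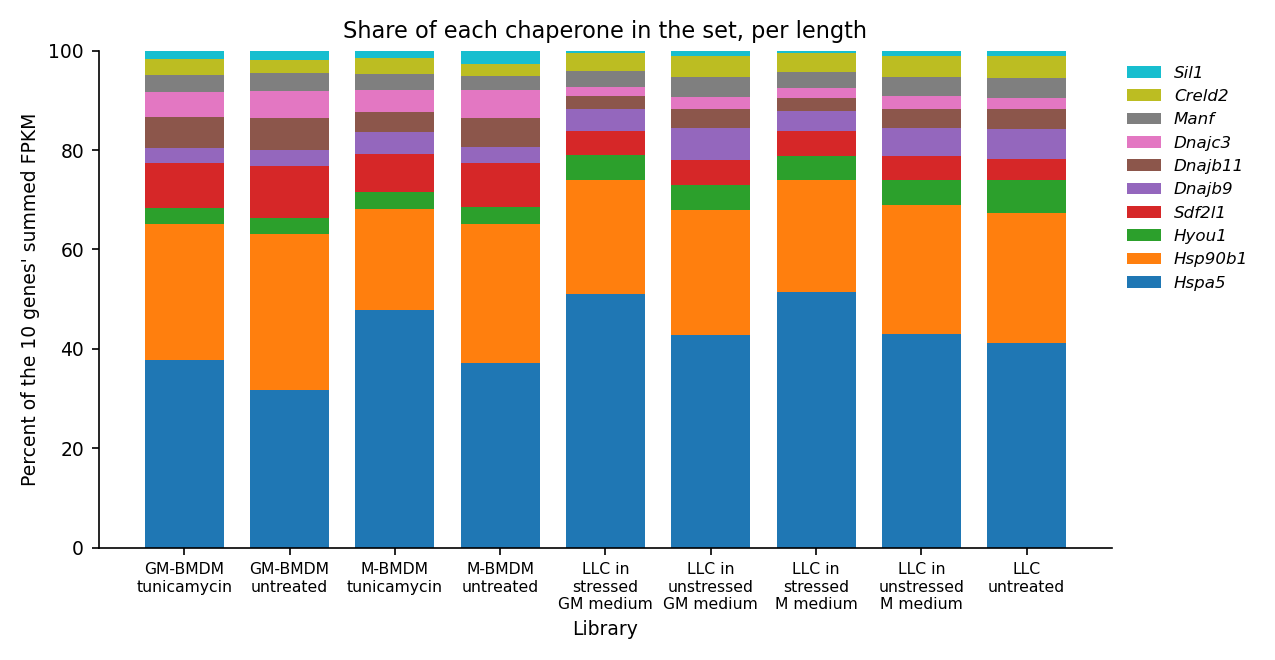
Share of each gene in the summed FPKM of the 10 genes, by library, in percent. Hspa5, at the base of each bar, holds 31.7% to 51.4%, and more in each stressed library than in its unstressed counterpart.

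The balance of Hspa5 against Dnajb9 and Creld2 varied between the pairs. Per Dnajb9, Hspa5 FPKM was 12.0 (11.6 to 12.5) in treated and 10.3 (9.87 to 10.7) in untreated GM-BMDM, with separate counting intervals. It was 11.2 (10.9 to 11.6) in treated and 11.2 (10.7 to 11.7) in untreated M-BMDM. In LLC cells it was 11.8 (11.3 to 12.3) in stressed and 6.69 (6.36 to 7.05) in unstressed GM medium, and 12.9 and 7.66 in stressed and unstressed M medium. Per Creld2 it was 11.8 and 11.7 in treated and untreated GM-BMDM and 14.7 and 15.3 in treated and untreated M-BMDM, with overlapping counting intervals within each kind, against 13.9 and 10.3 in stressed and unstressed GM medium. Sil1 was the scarcest of the 10 per length in every library except untreated M-BMDM, where Creld2 had 16.51 FPKM. Its level was 13.77 to 18.7 FPKM in macrophages and 5.357 to 6.566 FPKM in LLC cells. Its gene length is 1695 bases in the macrophage table and 3436 bases in the LLC table, so its FPKM are not comparable across the tables.

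Likeness to Hspa5 was measured as the Euclidean distance between log2(CPM + 1) values centred within each table, over 9 libraries and 7283 genes with a mean of at least 10 CPM in both tables. The 6 nearest genes were Creld2 (0.65), Hyou1 (0.69), Sdf2l1 (0.79), Plpp5 (0.84), Manf (0.85) and Ccdc134 (0.85), so that 4 of the 6 are members. Dnajb9 ranked 8th, Dnajc3 9th and Hsp90b1 13th. Dnajb11 ranked 227th and Sil1 4678th. The distances share libraries and scaling and are given as a description.

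The genes lie on separate chromosomes for the most part, by coordinates of the deposited tables that equal those of GENCODE M21 on GRCm38. Hspa5 (ENSMUSG00000026864) spans chr2:34771970-34777547, Hsp90b1 chr10:86690209-86705509, Dnajb9 chr12:44205559-44210326, Dnajc3 chr14:118937976-118981697 and Creld2 chr15:88819646-88826683. Hyou1 (chr9:44379490-44392369) and Manf (chr9:106838312-106891979) share chromosome 9, and Sdf2l1 (chr16:17130138-17132383) and Dnajb11 (chr16:22857845-22879634) share chromosome 16, in each case far apart. Sil1 spans chr18:35266396-35499780. The strand setting of the counting is not given in the sources used here, so reads of genes that overlap on the opposite strand cannot be told apart. Exons overlap for Hsp90b1 (1810014B01Rik, 415 bases), Manf (Dcaf1, 146 bases, and 4930524O07Rik, 166 bases), Dnajb9 (Mir5627, 14 bases) and Sil1 (AC147989.1, 108 bases, and AC147989.3, 88 bases). On the same strand, exons of Hsp90b1 overlap those of Gm15344 (84 bases) and Gm25745 (133 bases), and exons of Manf those of Rbm15b (14 bases). Exons of Hspa5, Hyou1, Sdf2l1, Dnajb11, Dnajc3 and Creld2 share no base with another annotated gene.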

How the data were processed

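Read counts per gene and FPKM were deposited by the authors in 1 table for LLC cells and 1 for BMDM, per the file headers, and the counts were whole numbers in each cell (0 exceptions). FPKM recomputed here from the counts and gene lengths differed from the deposited ones by at most 5e-07 (LLC) and 4.9e-06 (BMDM). A stray line-end character in the last quoted column of the LLC table was handled in reading. Cutadapt 1.15, HISAT2 and TopHat2 2.1.0 are named in the submitters' processing notes. Which counter, strand setting and build were used is not stated. GENCODE M21 (GRCm38) holds 21817 of the LLC gene IDs, 99.0% of them with the same coordinates.

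CPM were computed from the deposited counts with TMM library sizes per table (edgeR 4.0.16, R 4.3.3). Differences are log2(CPM + 1), folds are CPM ratios with exact Clopper-Pearson intervals at 95%, and genes under a mean of 1 CPM in a table were left out. Additive models of the deposited counts were tested by edgeR's quasi-likelihood method with Benjamini-Hochberg adjustment at 0.05, and SE is the absolute log2 fold change over the square root of F. The prior degrees of freedom were 5.77 for BMDM and infinite for LLC. The fits were tested on simulated data. Alternatives were DESeq2 1.42.0, RLE size factors, total counts, no low-count filter, a pseudocount of 0.1 CPM and the LLC fit without the untreated library. Each group held 1 library, taken from the treatment labels, and p-values measure only the spread among these libraries. Any of the 10 members may be named in a comparison, with up to 3 genes per other list by largest difference or lowest p and the 6 genes nearest to Hspa5. Ddit3, Herpud1, Sec63, Dnajc10 and the marker genes given by name were named outside that rule after their values were seen. The members and lists were chosen with earlier results of these data known.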

Additional observations from a re-analysis of the deposited data

Results flagged for a closer look

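Of the 10 genes, 6 were higher in GM-BMDM than in M-BMDM when untreated and lower when both had tunicamycin. No share of all genes is given for this pattern, so it is not shown to be particular to these genes. For 4 of the 6 the counting intervals excluded a ratio of 1 in both states, and Sdf2l1 and Dnajb9 were the rest. As log2(CPM + 1) differences of GM over M, Manf was at -0.107 with tunicamycin and 0.483 untreated, and Creld2 at -0.258 with tunicamycin and 0.325 untreated. Hyou1 was at -0.322 with tunicamycin and 0.151 untreated, and Dnajc3 at -0.056 with tunicamycin and 0.097 untreated. Each sign rests on 1 library per group and the difference was not tested. With RLE size factors the tunicamycin value of Dnajc3 was -0.03.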

How the results depend on the processing

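No value past a threshold changed its direction under the alternatives run. Below the thresholds, Sil1 turned with total counts, to 0.104 in treated over untreated M-BMDM (-0.001 with TMM) and to 0.016 for its stressed-medium response, GM minus M (-0.01). With DESeq2 the genes called numbered 476 for stressed over unstressed medium (2611 with edgeR), 1992 for the 4 media over untreated cells (5231), 30 for GM over M medium (507) and 52 for tunicamycin in BMDM (0), where edgeR with no low-count filter called 101. For tunicamycin 2 of the 10 members, Hspa5 and Creld2, were called with DESeq2 and 2 with no filter, against 0. With total counts in place of TMM, 5 members were at least 25% higher in treated than untreated GM-BMDM (3 with TMM; 5.95% of all genes with total counts), 2 in untreated GM-BMDM over M-BMDM (5; 26.0%) and 0 in treated GM-BMDM over treated M-BMDM (1; 25.5%). With total counts 1 member was 2-fold higher in stressed over unstressed M medium (2; 0.384%), and 2 in stressed M medium over untreated cells (5; 1.06%). In treated over untreated M-BMDM 9 members were at least 25% higher with total counts (20.8% of all genes), against 7 with TMM. In stressed over unstressed GM medium 7 were (6.77%), against 8 with TMM. The largest shift of the median of all genes by another scaling was 0.098, in M-BMDM with total counts. Dnajb11 lost its call for the 4 media with DESeq2. The causes were not tested. No paired analysis was possible because each group held 1 library, and for the same reason no replicate could be left out. Depth limits mostly Sil1 in LLC cells, where it had the fewest counts of the 10 genes. In untreated M-BMDM Creld2 had fewer counts than Sil1, 850 against 1109.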
